A study of Mus musculus with 88 samples.

Results

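The comparison set NFSa tumours taken 1 day after 30 Gy of carbon ions (2 arrays) against untreated NFSa tumours of the same arm (2 arrays), which are 4 of the 88 arrays in the series. The arrays were chosen by the tumour, beam, dose and time in their titles, and no measured value was used. NFSa is a fibrosarcoma that arose without treatment in a C3H/He mouse and is kept by transplantation. In this study it grew in the hind leg of C3H/HeNrs mice, so that every array, treated or not, read tumour cells together with host blood cells, vessels, stroma and any leg tissue that was taken with the tumour. The series also held 3 other C3H tumours (the squamous carcinomas NR-S1 and SCCVII, and the radiation-induced fibrosarcoma #8520), other times (6 h and day 3) and a gamma-ray arm with untreated tumours of its own. These serve as comparisons: NFSa at 6 h or 3 days after the same carbon dose (4 arrays), the other 3 tumours at day 1 after carbon ions and untreated (12 arrays), and NFSa at day 1 after 30 Gy of gamma rays and untreated in the gamma arm (4 arrays). It is not stated whether both arrays of a group read RNA of different mice. The p-values therefore rest on array-to-array spread, which may be technical.

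Carbon ions are a densely ionising beam that leaves clustered DNA breaks along each particle's track. In cells with working p53, DNA breaks stabilise this transcription factor, which switches on genes that stop the cell cycle, remove damage or start cell death. Damaged tissue also releases chemokines that draw neutrophils first and monocytes later, and interferons switch on further sets of genes in tumour and host cells.

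Intensities are as deposited, on a linear scale on which each array's median lies near 1. The day 1 arrays had medians of 1.06 each, against 1.05 each for the untreated arrays, and the untreated pair agreed most closely of all 44 groups of the series (SD of the log2 difference over genes 0.139, against 0.150 for the day 1 pair). The fibroblast markers fixed for the check of the label were all measured, and their summed intensity was 1227 and 1233 at day 1, against 1224 and 1227 in untreated tumours. Single markers moved within this sum in both directions. Pdgfrb read 25.7 and 19.1 at day 1, against 38.2 and 34.1 in untreated tumours. Col1a1 read 39.2 and 41.7 at day 1, against 34.9 and 37.4 in untreated tumours. Keratin genes were low beside those of the carcinoma NR-S1. Krt14, a basal keratin, was 0.736 and 0.686 in NFSa at day 1, against 1.20 and 1.25 in untreated NFSa and 510 and 488 in untreated NR-S1. Krt18, of the epithelial check list, was not measured. The summed intensity of the 9 measured epithelial markers was 6.17 and 5.36 at day 1, against 6.74 and 7.10 in untreated tumours. In untreated SCCVII of the carbon arm, also a carcinoma, these markers summed to 6.13 and 5.64, and the fibroblast markers to 1718 and 1466. The sums of the check lists thus set NFSa apart from NR-S1 but not from SCCVII. Single fibroblast markers did differ from SCCVII, in both directions. Thy1 read 10.1 and 10.6 in untreated NFSa, against 0.897 and 0.791 in untreated SCCVII. Vim read 212 and 202 in untreated NFSa, against 358 and 360 in untreated SCCVII.

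At day 1, the largest rises in NFSa were in the fat cell gene Adipoq and in genes of neutrophils and of the acute phase, and the largest falls were in genes of slow muscle fibres. Most tested genes of sterol synthesis and of DNA replication also fell, by smaller amounts. Of 13462 genes tested, 1225 (9.10%) were higher at day 1 than in untreated tumours and 941 (6.99%) lower under an adjusted p of 0.05, together 16.1%. Hereafter a gene that passed this limit is said to have risen or fallen. By at least 1.5-fold, 572 genes (4.25%) were higher and 236 (1.75%) lower. The median change over all genes tested was -0.01 on the log2 scale. The total of 2166 genes was 1382 without untreated replicate 1 and 1417 without day 1 replicate 2. Many of the counts by gene list that follow hold for the untreated tumours of the carbon arm and were different with those of the gamma arm, as given with that arm below.

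**Figure D1:**
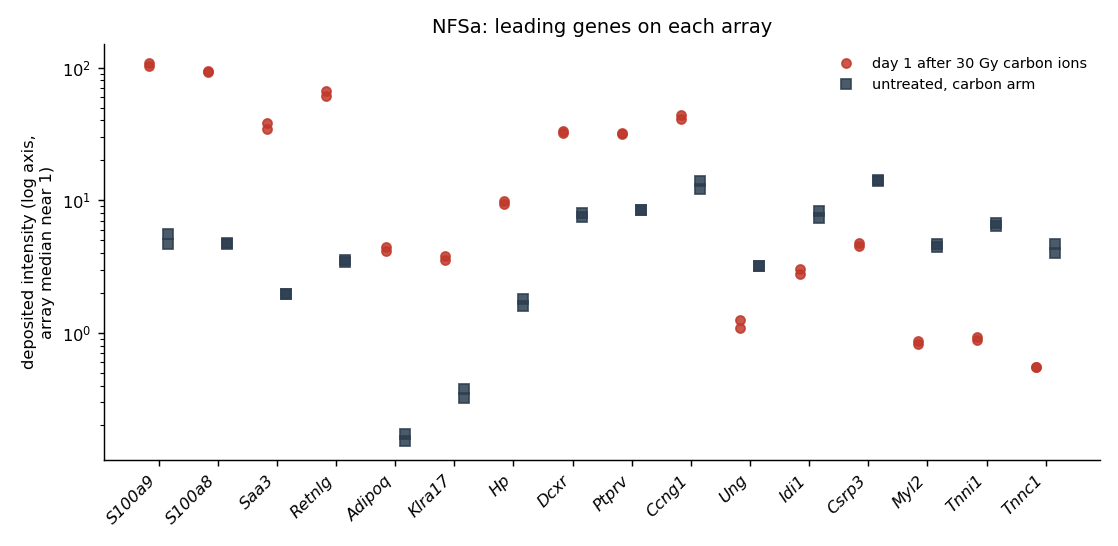
Intensity of 16 genes on each NFSa array (log axis), with 2 day 1 arrays (red circles) left of 2 untreated arrays (dark squares) for each gene. In the first 10 genes both day 1 arrays lie above both untreated arrays, and in the last 6 genes below them.

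After Adipoq, described with the fat cell genes, the neutrophil genes S100a9 and S100a8 had the largest rises of the genes named. S100a9 and S100a8 encode the subunits of calprotectin, the main protein of neutrophil cytosol. S100a9 read 103 and 108 at day 1, against 5.55 and 4.68 in untreated tumours, which is 20.7-fold higher (log2 difference 4.37, SE 0.115, limma adjusted p = 1.1e-35). S100a8 read 93.2 and 93.8 at day 1, against 4.79 and 4.64 in untreated tumours. Retnlg, a resistin-like protein of granulocytes, read 66.3 and 61.4 at day 1, against 3.56 and 3.43 in untreated tumours, an 18.3-fold rise. In none of these genes did the groups overlap. Mmp8, neutrophil collagenase, read 7.18 and 7.43 at day 1, against 1.33 and 1.43 in untreated tumours. Asprv1, a protease also found in neutrophils, rose 5.31-fold, and Cxcr2, the receptor of the chemokines below, read 1.26 and 1.28 at day 1, against 0.272 and 0.241 in untreated tumours. Of 19 neutrophil markers tested, 13 rose and 1 fell, with a median of 0.90 on the log2 scale against -0.01 over all genes. The 1 fall was lost without day 1 replicate 1 or without untreated replicate 2. The summed intensity of the 5 measured markers of the neutrophil check list (6 with Ly6g, which had no probe of its own) was 267 and 269 at day 1, against 15.7 and 14.5 in untreated tumours. In bulk tumour RNA, more cells of a type and more RNA per cell cannot be told apart.

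The chemokines that attract neutrophils showed smaller rises at day 1. Cxcl2 read 6.05 and 6.17 at day 1, against 2.25 and 2.21 in untreated tumours (log2 difference 1.45, limma adjusted p = 2.1e-10). Cxcl3 read 5.89 and 5.94 at day 1, against 4.58 and 4.05 in untreated tumours (log2 difference 0.46), and its call was lost without untreated replicate 2. Cxcl1, with 4.11 and 4.80 at day 1 and 5.46 and 4.60 in untreated tumours, overlapped between the groups and did not pass (adjusted p = 0.47). Of the 8 genes of this list, 6 rose and 0 fell, with a median of 0.43, where 9.10% of all genes rose. The list includes the receptor gene Cxcr2, given above with the neutrophil genes, which had its largest rise (log2 difference 2.31). The count of rises was 3 without day 1 replicate 2 and 2 without untreated replicate 2. The genes of these 3 ligands all lie on mouse chromosome 5, and their promoters are shown because the search for the kB motif (GGNNTTTCC on either strand, the core bound by NF-kB) found it in each. Capitals mark the motif.
Cxcl2: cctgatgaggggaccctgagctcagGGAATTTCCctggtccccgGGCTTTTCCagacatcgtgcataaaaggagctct
Cxcl3: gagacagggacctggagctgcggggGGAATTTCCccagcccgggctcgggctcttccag
Cxcl1: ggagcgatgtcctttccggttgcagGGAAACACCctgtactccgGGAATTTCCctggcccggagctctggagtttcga
The stretches lie on the plus strand of RefSeq's assembly GRCm38.p6, at chr5:90903778-90903855 for Cxcl2, chr5:90786004-90786062 for Cxcl3 and chr5:90891131-90891208 for Cxcl1. The first base of a match lay 96 and 77 bases before the annotated start in Cxcl2, 72 in Cxcl3, and 89 and 70 in Cxcl1. Of the chemokine list's 7 promoters in the table, 3 held the motif (42.9%), against 5.72% of 27025 mouse promoters of the same length. The promoter of Cxcl1, which did not pass at day 1, thus holds the motif too.

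Acute phase genes rose with the neutrophil genes, while several cytokine genes did not. Saa3, a serum amyloid A made outside the liver, read 38.4 and 34.3 at day 1, against 1.97 and 1.96 in untreated tumours, an 18.5-fold rise (limma adjusted p = 8.2e-30). Hp, haptoglobin, read 9.43 and 9.92 at day 1, against 1.80 and 1.60 in untreated tumours. Orm2 and Orm1, the orosomucoids, rose 6.12-fold and 4.24-fold. Il1b, the inflammatory cytokine interleukin 1 beta, read 14.6 and 16.4 at day 1, against 7.14 and 5.97 in untreated tumours. Il6, interleukin 6, was 1.45 and 1.44 at day 1 and 1.77 and 1.79 in untreated tumours, a difference that did not pass (adjusted p = 0.056). Of 24 genes of the list, 9 rose and 4 fell, with a median of -0.02, and the acute phase genes stood at its top. The 4 falls were 2 without day 1 replicate 1 or without untreated replicate 2. Outside the list, Serpina3n, a serine protease inhibitor of the acute phase, rose 5.26-fold. Arg2, a mitochondrial arginase, read 1.09 and 1.08 at day 1, against 0.203 and 0.217 in untreated tumours. Rarres2, which encodes the chemoattractant chemerin, read 16.8 and 15.7 at day 1, against 3.24 and 3.04 in untreated tumours. Klra17, a receptor of the Ly49 family, rose 10.6-fold, H2-Q10, a class I molecule known from liver, 7.04-fold and Ces2e, a carboxylesterase, 6.09-fold.

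Among the CC chemokines, 5 of 14 rose and 1 fell, where 9.10% of all genes rose and 6.99% fell. The call of the fall was lost without any one of 3 arrays (untreated replicate 1, untreated replicate 2 or day 1 replicate 2). Ccl8, which attracts monocytes and T cells, read 93.4 and 98.3 at day 1, against 29.0 and 30.0 in untreated tumours. Ccl3 rose 3.07-fold and Ccl11, the eosinophil attractant eotaxin, 2.59-fold. Ccl2, the main monocyte attractant, was already high and did not pass, with 138 and 152 at day 1 against 164 and 138 in untreated tumours. Of 26 macrophage and monocyte genes, 6 rose and 1 fell (26.9% called, against 16.1% of all genes), with a median of 0.16. The count of rises ranged from 3 to 9 over the alternatives with the same untreated arrays. The fall was lost without day 1 replicate 1 or without untreated replicate 2. Marco, a scavenger receptor, read 3.74 and 3.83 at day 1, against 1.27 and 1.32 in untreated tumours, Gpnmb rose 3.03-fold and Cd163, the haptoglobin-haemoglobin receptor, 2.01-fold. Apoe, the lipid carrier of macrophages, read 10.3 and 9.27 at day 1, against 4.96 and 4.49 in untreated tumours. Adgre1, which encodes the macrophage marker F4/80, overlapped between the groups, with 1.96 and 1.95 at day 1 and 1.93 and 2.20 in untreated tumours. Of 9 complement genes, 5 rose and 0 fell (55.6% called). They included Cd55, an inhibitor of complement on cell surfaces (2.14-fold), Cfb, factor B of the alternative pathway (1.86-fold), and C1ra, a protease of the classical pathway (1.83-fold).

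Targets of p53 rose as a group. Cdkn1a, which encodes the cell cycle inhibitor p21, read 104 and 71.4 at day 1, against 38.1 and 43.9 in untreated tumours (log2 difference 1.07, SE 0.192, limma adjusted p = 2.1e-05). Mdm2, the ubiquitin ligase that limits p53, read 6.66 and 7.46 at day 1, against 3.34 and 3.70 in untreated tumours. Ccng1, cyclin G1, read 41.3 and 44.2 at day 1, against 12.2 and 13.9 in untreated tumours. Both day 1 arrays exceeded both untreated arrays in each of these genes, although the day 1 arrays differed from each other by more in Cdkn1a than in the others. The largest rise in the list was in Dcxr, a dicarbonyl and xylulose reductase, with 33.3 and 32.1 at day 1, against 7.95 and 7.52 in untreated tumours. Ptprv, a receptor-type phosphatase that p53 induces in mice, rose 3.80-fold, Ephx1, microsomal epoxide hydrolase, 2.48-fold and Dglucy 2.21-fold. Of 37 targets tested, 27 rose and 0 fell, with a median of 0.64, where 9.10% of all genes rose.

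Replication genes fell while mitotic genes were near the untreated level. E2f2, a transcription factor that drives entry into S phase, read 7.66 and 8.06 at day 1, against 17.7 and 16.2 in untreated tumours. Tk1, thymidine kinase, read 13.8 and 12.2 at day 1, against 26.5 and 25.8 in untreated tumours. Mcm6, a subunit of the replicative helicase, read 26.4 and 21.7 at day 1, against 41.4 and 47.2 in untreated tumours. Of 34 replication genes, 25 fell and 0 rose, with a median of -0.50, where 6.99% of all genes fell. The count of falls was 16 without day 1 replicate 1 and 15 without untreated replicate 2. Pcna, the sliding clamp, passed with all 4 arrays (77.7 and 82.0 at day 1, against 111 and 107 in untreated tumours) but lost its call without any one of them. Of 30 DNA repair genes, 11 fell and 0 rose, and 7 fell without day 1 replicate 1 or without untreated replicate 1. Ung, the uracil DNA glycosylase, read 1.24 and 1.08 at day 1, against 3.19 and 3.17 in untreated tumours, a 2.75-fold fall. Neil3, a further DNA glycosylase, fell 1.72-fold and Chek1, the checkpoint kinase, 1.59-fold.

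Of 33 genes of G2 and mitosis, 2 rose and 2 fell at day 1, with a median of 0.00. The rises came to 1 without day 1 replicate 2 or without untreated replicate 2, and the falls to 1 without day 1 replicate 1 or without either untreated array. Plk1, the polo-like kinase of mitotic entry, read 2.81 and 2.28 at day 1 and 2.71 and 2.78 in untreated tumours (adjusted p = 0.59). Kif20a, a kinesin of the midzone of dividing cells, read 16.3 and 18.1 at day 1, against 9.771 and 12.009 in untreated tumours, and rose. Ube2c, which marks mitotic proteins for destruction, read 85.1 and 88.3 at day 1, against 65.3 and 63.7 in untreated tumours, but did not pass without untreated replicate 2 or day 1 replicate 2. Kif23, a kinesin of cytokinesis, read 1.56 and 1.73 at day 1, against 2.06 and 2.92 in untreated tumours, and its fall was lost without day 1 replicate 1 or untreated replicate 2. This list moved far more between times than between day 1 and untreated tumours, as given below.

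Genes of sterol and fatty acid synthesis fell together. Idi1, isopentenyl diphosphate isomerase, read 3.03 and 2.79 at day 1, against 7.28 and 8.29 in untreated tumours (log2 difference -1.42, SE 0.134, limma adjusted p = 1.4e-12). Fdps, farnesyl diphosphate synthase, read 44.3 and 42.0 at day 1, against 102 and 107 in untreated tumours. Lss, lanosterol synthase, read 1.21 and 1.15 at day 1, against 2.98 and 2.86 in untreated tumours. Both untreated arrays exceeded both day 1 arrays in each of these genes. Sqle, squalene epoxidase, fell 2.18-fold, Hmgcs1, which starts the mevalonate pathway, 1.61-fold, and Elovl6, a fatty acid elongase, 2.54-fold. Of 28 genes, 23 fell and 0 rose, with a median of -0.68. Promoters of 3 of these genes are shown, since 23 of the list's 28 genes fell. Capitals mark CCAAT on either strand in Idi1 and Lss, and the sterol regulatory element CACCCCAC in Hmgcs1, which SREBP factors are known to bind.
Idi1: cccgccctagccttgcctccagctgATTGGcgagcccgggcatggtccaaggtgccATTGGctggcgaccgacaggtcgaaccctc
Lss: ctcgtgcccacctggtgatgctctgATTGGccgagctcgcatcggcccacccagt
Hmgcs1: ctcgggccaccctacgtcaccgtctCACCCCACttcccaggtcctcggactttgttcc
These lie on the plus strand of RefSeq's GRCm38.p6 at chr13:8885536-8885621 for Idi1, chr10:76531518-76531572 for Lss and chr13:119690190-119690247 for Hmgcs1. CCAAT was found in 18 of 22 promoters of the list (81.8%), against 37.9% of all promoters. Similar shares were found in the mitotic list (78.6%) and in that of unfolded proteins and heat shock (78.3%), which did not fall as groups at day 1. The letters CACCCCAC were found in 1 of 22 (4.55%), against 2.77% of all promoters.

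Among the lists of stress genes, those of hypoxia and of unfolded proteins held more calls in 1 direction than all genes did (9.10% higher, 6.99% lower). Of 28 genes of hypoxia and glycolysis, 10 fell and 1 rose, and 6 fell without day 1 replicate 1. Slc16a3, the lactate exporter MCT4, read 6.58 and 6.50 at day 1, against 11.4 and 10.6 in untreated tumours. Adm, adrenomedullin, fell 1.68-fold, and Ndrg1, which hypoxia induces, had 8.01 and 7.94 at day 1, against 11.7 and 12.2 in untreated tumours, and fell. Of 25 genes of the unfolded protein and heat shock responses, 6 rose and 0 fell, and 3 rose without untreated replicate 1 or without day 1 replicate 2. Ddit3, which encodes the stress factor CHOP, read 39.2 and 35.5 at day 1, against 19.8 and 21.3 in untreated tumours. Dnajb9, a chaperone of the endoplasmic reticulum, rose 1.57-fold. The metallothioneins Mt2 and Mt1, which bind zinc and copper, rose 2.25-fold and 1.93-fold. They belong to the list of NRF2 and oxidative stress, of whose 22 genes 3 rose and 1 fell (18.2% called), the fall being lost without any one array. Nr4a1, an immediate-early nuclear receptor, read 2.30 and 2.19 at day 1, against 3.79 and 3.97 in untreated tumours, and of the 23 immediate-early genes 1 rose and 3 fell (17.4% called). Both shares lie near the 16.1% of all genes that passed.

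Interferon genes did not rise as a group at day 1. Of 31 type I interferon-stimulated genes, 8 fell and 2 rose, with a median of -0.10. The count of falls was 2 without day 1 replicate 1, 4 without untreated replicate 1 and 5 without untreated replicate 2. Rsad2, the antiviral enzyme viperin, read 0.716 and 0.656 at day 1, against 1.18 and 1.09 in untreated tumours, and Mx1 was 2.06 and 2.04 at day 1 and 2.16 and 2.19 in untreated tumours without passing. Slfn1, a Schlafen gene, went the other way, with 6.83 and 6.90 at day 1, against 2.66 and 2.78 in untreated tumours. Of 20 interferon gamma-inducible GTPases and chemokines, 5 rose and 3 fell, with a median of 0.04. Gbp8, a guanylate-binding protein, read 0.706 and 0.738 at day 1, against 0.211 and 0.180 in untreated tumours. Cxcl10, a ligand of the T cell receptor CXCR3, read 4.23 and 4.18 at day 1, against 8.74 and 8.49 in untreated tumours, while Cxcl9, which has the same receptor, rose 1.45-fold. Ubd, a ubiquitin-like protein, fell 2.10-fold. Of 20 genes of T and NK cells, 3 rose and 0 fell, a share (15%) near the 16.1% of all genes that passed. Nkg7, a granule protein of killer cells, read 1.13 and 1.24 at day 1, against 0.613 and 0.650 in untreated tumours, and Cd3d, a chain of the T cell receptor complex, rose 1.38-fold. Ighm, the heavy chain of IgM, read 1.08 and 1.18 at day 1, against 3.03 and 2.95 in untreated tumours. It had the lowest value of the B and plasma cell list, whose 10 tested genes ran from -1.40 to 1.14 (log2 scale). Of these 10 genes, 2 fell, 1 rose and 7 did not pass (30% called), with a median of -0.06. Batf3, a transcription factor of cross-presenting dendritic cells, read 1.78 and 1.60 at day 1, against 3.39 and 3.44 in untreated tumours, whereas the class II gene H2-Ab1 did not pass (22.1 and 21.2 at day 1, against 23.6 and 24.0 in untreated tumours).

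**Figure D2:**
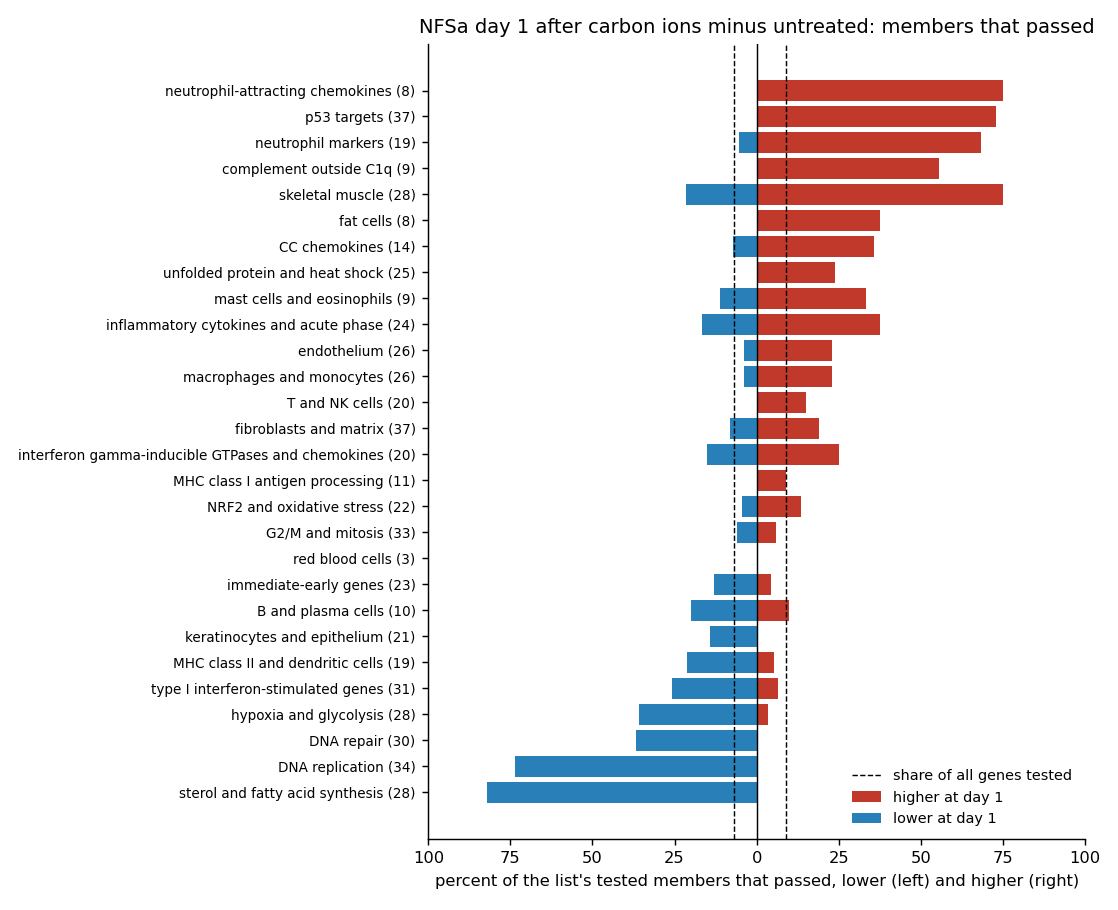
Percent of each list's tested members (number in brackets) that were lower (bars to the left) or higher (bars to the right) in NFSa at day 1 after carbon ions than untreated. Dashed lines give the same shares over all genes, 6.99% lower and 9.10% higher, and the lists are ordered by the difference of their shares.

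Muscle genes changed in opposite directions at day 1 by fibre type. Of 28 skeletal muscle genes, 21 rose and 6 fell, with a median of 1.17. Ckm, muscle creatine kinase, read 23.9 and 24.6 at day 1, against 6.47 and 7.13 in untreated tumours. Actn3, the alpha-actinin of fast fibres, read 22.9 and 23.8 at day 1, against 6.44 and 6.91 in untreated tumours. Acta1, skeletal muscle actin, read 189 and 209 at day 1, against 104 and 111 in untreated tumours. In contrast the largest falls of all genes named were in genes of slow fibres and heart muscle. Tnnc1, the slow and cardiac troponin C, read 0.549 and 0.551 at day 1, against 4.669 and 4.002 in untreated tumours, a 7.86-fold fall (limma adjusted p = 1.8e-19). Tnni1, slow troponin I, read 0.933 and 0.889 at day 1, against 6.39 and 6.69 in untreated tumours. Myl2, the slow and cardiac regulatory light chain, fell 5.36-fold, Tnnt1, slow troponin T, 2.85-fold and Csrp3, the muscle LIM protein, which was not on the list, 3.06-fold. When the list was divided by fibre type, a division chosen after the values were seen, 11 of 11 fast-fibre genes rose (median 1.44) and 6 of 6 slow-fibre genes fell (median -1.97). The slow-fibre genes were already below untreated tumours at 6 h (median -1.36) and still at day 3 (-0.95), and they were below the gamma arm's untreated tumours at day 1 after gamma rays (-0.99). The summed intensity of the 6 muscle markers of the check list, which include the fast-fibre genes Tnni2, Tnnt3, Mylpf and Myh4, was 705 and 696 at day 1, against 305 and 313 in untreated tumours. The part that leg muscle taken with the tumour may have in any other difference was not tested.

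**Figure D3:**
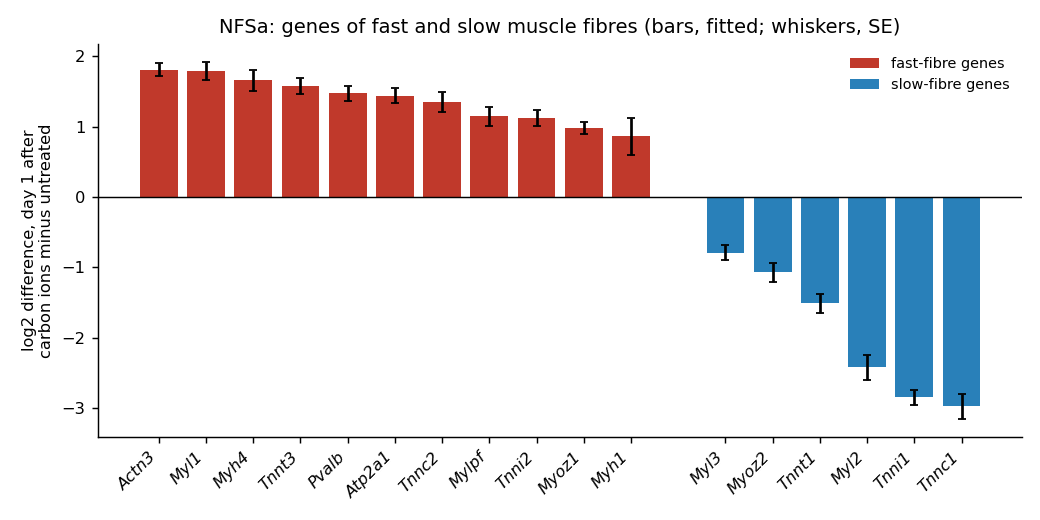
Log2 difference between NFSa at day 1 after carbon ions and untreated NFSa for the muscle genes of fast fibres (red, 11 genes) and slow fibres (blue, 6 genes), with the SE of the fit as whiskers. All fast-fibre bars are above 0 and all slow-fibre bars below it.

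Adipoq, which encodes the fat cell hormone adiponectin, had the largest rise of all genes named. It read 4.40 and 4.14 at day 1, against 0.152 and 0.173 in untreated tumours, a 26.3-fold rise (log2 difference 4.72, SE 0.150, limma adjusted p = 9.7e-32). Adipoq read far higher in untreated NFSa of the gamma arm, with 2.33 and 2.11, and read 2.46 and 2.73 at day 1 after 30 Gy of gamma rays. The size of its rise thus depends on the untreated arrays used. Its untreated readings in the carbon arm were also dim (the 5th percentile of all deposited values was 0.073). Over the alternatives with the same untreated arrays its log2 difference ran from 4.14 to 4.81, and that of S100a9 from 4.25 to 4.53. Adipoq was thus not the largest rise under every alternative. Plin4, a lipid droplet protein, read 1.21 and 1.31 at day 1, against 0.471 and 0.476 in untreated tumours. Fabp4, the fatty acid carrier of fat cells, did not pass, with 45.9 and 39.4 at day 1 against 40.7 and 39.7 in untreated tumours. Of 8 fat cell genes, 3 rose and 0 fell (37.5% called, against 16.1% of all genes). The count of rises ranged from 1 to 4 over the alternatives with the same untreated arrays. The summed intensity of the 3 measured fat cell markers (4 with Plin1, which had no probe of its own) was 61.8 and 55.0 at day 1, against 53.5 and 51.0 in untreated tumours. Adipoq is itself 1 of these markers, beside Fabp4 and Cidec, so the sum contains its rise. Cidec overlapped between the groups, with 11.5 and 11.4 at day 1 and 12.7 and 11.1 in untreated tumours. The part that fat taken with the tumour may have in the rise of Adipoq was not tested.

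Among vessel and stroma genes more rose than fell. Of 26 endothelial genes, 6 rose and 1 fell (26.9% called, against 16.1% of all genes), and 3 rose without untreated replicate 1 or without day 1 replicate 2. Mmrn2, a matrix protein of vessels, read 2.51 and 2.39 at day 1, against 1.21 and 1.05 in untreated tumours, and Vwf, von Willebrand factor, rose 1.43-fold. Pecam1, the vessel marker CD31, did not pass, with 4.34 and 4.46 at day 1 against 3.88 and 4.16 in untreated tumours. Of 37 fibroblast and matrix genes, 7 rose and 3 fell (27% called), with log2 differences over the list from -0.79 to 1.40. The count of rises was 4 without untreated replicate 1, and that of falls 1 without day 1 replicate 2. The small matrix proteoglycans were among the rises, with Lum, lumican, at 9.18 and 8.05 at day 1, against 3.14 and 3.39 in untreated tumours, Dcn, decorin, 1.65-fold higher and Ogn, osteoglycin, 1.73-fold higher. Col1a1 and Vim, the collagen I and vimentin genes, did not pass (adjusted p = 0.58 and 0.99). Among the remaining large falls were Otx1, a homeobox gene, with 0.685 and 0.724 at day 1, against 1.92 and 2.02 in untreated tumours, Gcnt4, a glycan-branching enzyme, which fell 2.95-fold, and Ambp, the alpha-1-microglobulin and bikunin precursor known from liver. Ambp read 4.02 and 2.29 at day 1, against 10.5 and 11.9 in untreated tumours, so its day 1 arrays differed from each other. Of 21 keratinocyte genes, 3 fell and 0 rose, and no fall remained without day 1 replicate 2 or without untreated replicate 2.

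Day 1 lay between 2 other times after the same beam, which share the day 1 arrays in the comparisons that follow. Relative to 6 h, 1556 genes (11.6%) were higher at day 1 and 3108 (23.1%) lower, with a median over all genes of -0.08. Quantile normalization turned this split to 2064 higher and 1870 lower and moved the median of all genes to 0.02, so small differences between these times depend on the scaling. Day 1 was marked against 6 h by the fall of early cytokines. Cxcl1 read 4.11 and 4.80 at day 1, against 64.2 and 64.0 at 6 h (log2 difference -3.85, limma adjusted p = 4.3e-29). Cxcl2 read 6.05 and 6.17 at day 1, against 47.1 and 53.1 at 6 h, and Il6 read 1.45 and 1.44 at day 1, against 9.70 and 11.1 at 6 h. Slc7a11, the cystine importer, read 0.983 and 0.734 at day 1, against 7.65 and 7.57 at 6 h. Of the 8 neutrophil-attracting chemokine genes, 5 were lower at day 1 than at 6 h and 1 higher, the one being the receptor gene Cxcr2. S100a9 read 103 and 108 at day 1 and 129 and 117 at 6 h, a difference that did not pass (adjusted p = 0.13). Retnlg read 66.3 and 61.4 at day 1, against 106 and 95.0 at 6 h, and was lower. The genes that rose most against 6 h were of fat and muscle, such as Adipoq and the muscle kinase gene Mylk4, which read 2.64 and 2.95 at day 1, against 0.430 and 0.368 at 6 h. Relative to untreated tumours, the fast-fibre muscle genes had a median of 0.27 at 6 h, 1.44 at day 1 and 0.38 at day 3, and the slow-fibre genes one of -1.36 at 6 h, -1.97 at day 1 and -0.95 at day 3.

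The mitotic genes were lower at 6 h, near the untreated level at day 1 and lower again at day 3. Of 33 members, 30 were higher and 0 lower at day 1 than at 6 h, and 32 were lower and 0 higher at day 3 than at day 1, with medians of 0.76 and -1.73. Plk1 read 0.854 and 0.858 at 6 h, 2.81 and 2.28 at day 1, and 0.716 and 0.632 at day 3, with 2.71 and 2.78 in untreated tumours. Kif20a read 4.22 and 4.32 at 6 h, 16.3 and 18.1 at day 1, and 2.97 and 3.13 at day 3. The promoters of Plk1 and Kif23 are shown since both hold the CHR motif TTTGAA (on either strand), the element through which the DREAM complex is known to hold cell cycle genes down. Capitals mark it.
Plk1: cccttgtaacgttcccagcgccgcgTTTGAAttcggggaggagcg
Kif23: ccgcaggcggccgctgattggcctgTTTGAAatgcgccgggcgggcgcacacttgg
They lie at chr7:122159440-122159484 on the plus strand for Plk1 and chr9:61946767-61946822 on the minus strand for Kif23 (RefSeq, GRCm38.p6). The motif was found in 20 of 28 promoters of the mitotic list (71.4%), against 18.1% of all promoters. It was searched for by its letters alone, and a match does not show a bound site.

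Against day 1, 1996 genes (14.8%) were higher at day 3 and 3385 (25.1%) lower, with a median of -0.09 over all genes. The interferon and T cell genes, mostly not called at day 1, were among the largest rises by day 3. Gbp8 read 31.5 and 26.9 at day 3, against 0.706 and 0.738 at day 1, Cxcl9 read 54.6 and 45.8 at day 3, against 2.89 and 2.99 at day 1, and Calhm6, a calcium homeostasis modulator, 42.6 and 40.2 at day 3, against 1.60 and 1.39 at day 1. All 20 interferon gamma-inducible genes, 30 of 31 type I genes and 19 of 20 T and NK cell genes were higher at day 3 than at day 1, with 0 lower in each list. Apoe read 81.5 and 63.0 at day 3, against 10.3 and 9.27 at day 1. The actins of smooth muscle and myofibroblasts fell after day 1: Acta2 read 30.2 and 28.5 at day 3, against 166 and 164 at day 1, and Actg2 read 9.06 and 8.02 at day 3, against 42.0 and 44.6 at day 1. Sterol synthesis and replication genes were mostly lower again, with 19 of 28 and 30 of 34 members lower at day 3 than at day 1. Idi1 read 0.950 and 0.857 at day 3, against 3.03 and 2.79 at day 1. Retnlg was lower by day 3, with 31.1 and 24.7 at day 3, against 66.3 and 61.4 at day 1.

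The interferon gamma list is shown by 3 of its promoters, because most of its members were not called at day 1 and all were higher at day 3 than at day 1. Capitals mark the core of the interferon-stimulated response element, GAAANNGAA on either strand.
Cxcl10: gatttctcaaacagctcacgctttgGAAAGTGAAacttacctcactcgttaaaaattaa
Cxcl9: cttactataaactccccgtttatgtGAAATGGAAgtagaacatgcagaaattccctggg
Calhm6: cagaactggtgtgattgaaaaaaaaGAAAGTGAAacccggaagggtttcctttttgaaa
All 3 lie on the minus strand of RefSeq's GRCm38.p6, at chr5:92349069-92349127 for Cxcl10, chr5:92328221-92328279 for Cxcl9 and chr10:34128003-34128061 for Calhm6. Of the list's 13 promoters in the table, 11 held the core (84.6%), against 8.57% of all promoters.

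**Figure D4:**
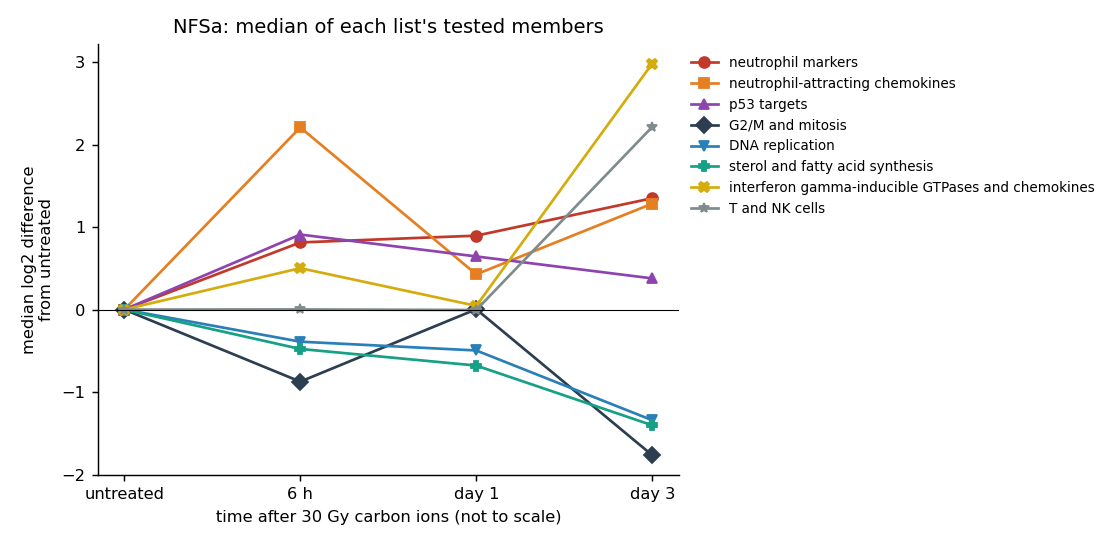
Median log2 difference from untreated NFSa of the tested members of 8 lists at 3 times after the carbon dose, with untreated set to 0. The mitotic median lies near 0 at day 1 and below it at 6 h and day 3, and the interferon gamma median is 0.50 at 6 h, 0.04 at day 1 and 2.98 at day 3.

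The day 1 response of NFSa was then set against the mean response of the other 3 tumours to the same beam and time. It exceeded theirs in 490 genes (3.65%) and lay below it in 912 (6.80%), with a median difference of -0.03. The total of 1402 genes was 893 without untreated replicate 1 and 892 without day 1 replicate 2 of NFSa. Of 37 p53 targets, 2 responded more and 1 less in NFSa than the mean of the others. Ccng1 rose by 1.72 on the log2 scale in NFSa, 0.91 in NR-S1, 1.62 in SCCVII and 1.78 in #8520, and its difference did not pass (adjusted p = 0.27). Some neutrophil genes responded more in NFSa, with 7 of 19 markers above and 4 below the mean of the others. S100a9 rose by 4.37 in NFSa, 0.65 in NR-S1, 3.10 in SCCVII and 4.47 in #8520 (log2 scale, limma adjusted p of the difference = 4.2e-14). Retnlg rose by 4.19 in NFSa, against 0.81, 0.43 and 4.74 in the same 3 tumours. In both genes the value in #8520 was above that in NFSa, and those in NR-S1 and SCCVII were below it. The list of neutrophil-attracting chemokines, which includes Cxcr2, mostly responded less in NFSa, with 6 of 8 genes below the others and 1 above. Cxcl2 rose by 1.45 in NFSa, 1.03 in NR-S1, 4.95 in SCCVII and 3.59 in #8520, and Cxcl3 by 0.46, 0.83, 4.10 and 1.86 in the same order.

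Adipoq rose by 4.72 in NFSa, 0.10 in NR-S1, 0.57 in SCCVII and 2.68 in #8520. Its untreated level in the carbon arm was 0.152 and 0.173 in NFSa, against 1.29 and 1.41 in NR-S1, 1.69 and 1.56 in SCCVII and 0.398 and 0.469 in #8520, so that untreated NFSa was the lowest. Retnla, a resistin-like protein of alternatively activated macrophages, differed most (3.78 higher in NFSa), with a log2 change of 2.02 in NFSa, -0.83 in NR-S1, -4.03 in SCCVII and -0.44 in #8520. Tspan8, a tetraspanin, read 9.05 and 9.70 in NFSa at day 1, against 1.88 and 1.82 in untreated NFSa, and changed by -0.17 in NR-S1, 0.86 in SCCVII and 0.48 in #8520. Gbp8 rose by 1.89 in NFSa and by 2.10 in SCCVII but fell in NR-S1 (-3.36) and #8520 (-3.25). Of the 20 genes of the interferon gamma list, 9 stood above the others' mean in NFSa and 0 below. That mean joined opposite changes, since 19 of the 20 rose in SCCVII (median 1.10), while 17 fell in NR-S1 (median -1.02) and 19 fell in #8520 (median -1.51), against 5 rises and 3 falls in NFSa (median 0.04). The slow-fibre muscle genes differed the other way, with a rise in SCCVII. Tnni1 changed by -2.84 in NFSa, -1.06 in NR-S1, 2.61 in SCCVII and -1.51 in #8520. The median of the slow-fibre genes was -1.97 in NFSa, -1.16 in NR-S1, 2.27 in SCCVII and -1.29 in #8520. The fast-fibre genes had medians of 1.44 in NFSa, 0.11 in NR-S1, 1.06 in SCCVII and 0.19 in #8520. Gzmg and Gzmf, granzymes known from lymphokine-activated cells and decidual NK cells, fell in NFSa (-1.36 and -0.96) and in #8520 (-1.15 and -1.08) and rose in SCCVII (3.41 and 4.09). Of 37 fibroblast and matrix genes, 18 responded less in NFSa than in the others and 0 more, with a median difference of -0.45. Col1a1 changed by 0.16 in NFSa, 0.87 in NR-S1, 0.44 in SCCVII and 0.74 in #8520.

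Whether carbon ions and gamma rays of the same dose differ at day 1 in NFSa depends on the untreated tumours of each arm, which differed from each other. Between untreated NFSa of the carbon arm and of the gamma arm, 3903 genes (29.0%) were higher in the carbon arm and 2721 (20.2%) lower, with a median of 0.06. All 20 interferon gamma-inducible genes were lower in untreated tumours of the carbon arm. Gbp8 read 0.211 and 0.180 in untreated NFSa of the carbon arm, against 47.6 and 44.8 in untreated NFSa of the gamma arm, a log2 difference of -7.89 (limma adjusted p = 2.1e-47). Cxcl9 read 1.95 and 2.11 in untreated NFSa of the carbon arm, against 76.5 and 63.9 in that of the gamma arm. T and NK cell genes were likewise lower in the carbon arm (19 of 20), and the T cell check list summed to 1.45 and 1.48 in untreated NFSa of the carbon arm, against 7.42 and 6.59 in that of the gamma arm. The mitotic genes were higher in the carbon arm (27 of 33), as was Mcm7, a subunit of the replicative helicase, with 5.71 and 7.69 against 0.997 and 0.979 in the gamma arm. Eef2, the translation elongation factor, read 9.35 and 13.3 in the carbon arm, against 1.40 and 1.98 in the gamma arm. Whatever else differed between the arms and the beam cannot be told apart. Set against the gamma arm's untreated tumours in place of its own, NFSa at day 1 after carbon ions gave other counts in most lists. Calls were also more frequent over all genes, with 3934 higher and 2585 lower in place of 1225 and 941, and the list counts that follow include this increase. Of the 33 mitotic genes 28 were then higher and 1 lower (in place of 2 and 2), and of the 20 T and NK cell genes 0 were higher and 19 lower (in place of 3 and 0). All 20 interferon gamma genes and 24 of 31 type I genes were lower, and the sterol list held 9 genes higher and 4 lower (in place of 0 and 23). The replication list held 6 higher and 9 lower (in place of 0 and 25), and the neutrophil-attracting chemokines 1 higher and 5 lower (in place of 6 and 0). The counts of the p53 targets (30 of 37 higher, 1 lower), the neutrophil markers (10 of 19 higher, 4 lower) and the muscle genes (20 of 28 higher, 5 lower) moved less. Within the muscle list, however, the slow-fibre genes Tnnc1 and Myl2 changed sign, with log2 differences of 0.14 and 0.76 in place of falls. The comparisons with other times, tumours and beams all use arrays of the first comparison, so they are not independent of it.

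The response to carbon ions minus that to 30 Gy of gamma rays was higher in 1056 genes (7.85%) and lower in 1431 (10.6%), with a median of -0.11. The excess of lower genes was turned by quantile normalization (1115 higher, 1081 lower) and by leaving out untreated replicate 2 of the gamma arm (1008 higher, 719 lower). Its largest values were those of the genes above. Gbp8 changed by 1.89 after carbon ions and by -7.15 after gamma rays, a difference of 9.04, but the day 1 levels were 0.706 and 0.738 after carbon ions, against 0.358 and 0.296 after gamma rays. Cxcl9 changed by 0.54 after carbon ions and by -5.42 after gamma rays, with day 1 levels of 2.89 and 2.99 after carbon ions, against 1.66 and 1.61 after gamma rays. Of the interferon gamma list, 20 of 20 genes had a higher response to carbon ions. Calhm6 and Gbp4, of the same list, differed by 5.25 and 4.78. A direct comparison of day 1 levels differed far less in these genes, by 1.15 in Gbp8, 0.85 in Cxcl9 and 0.30 in Calhm6 (adjusted p = 0.094).

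**Figure D5:**
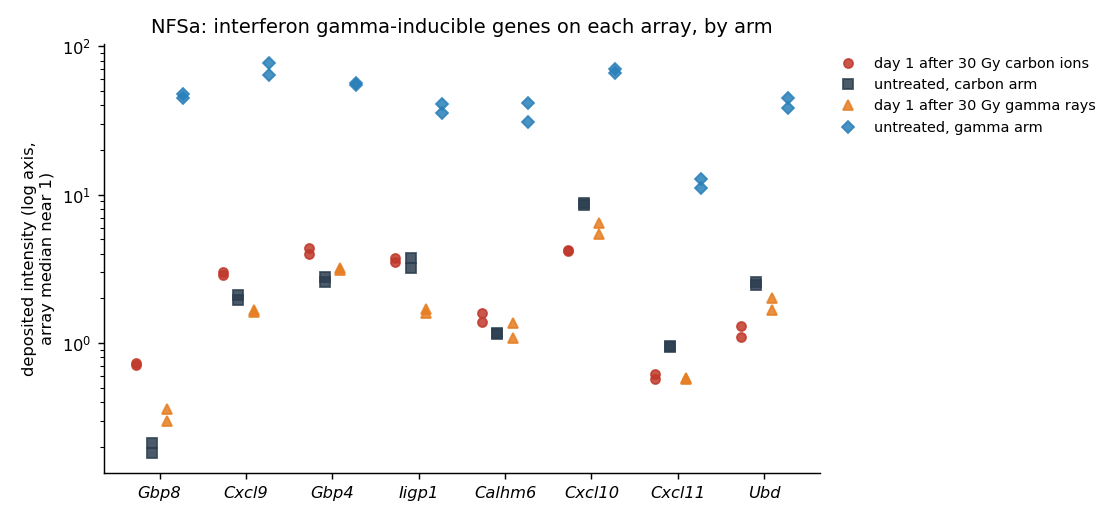
Intensity of 8 interferon gamma-inducible genes (log axis) on the arrays of 4 NFSa groups, from left to right day 1 after carbon ions, untreated in the carbon arm, day 1 after 30 Gy of gamma rays, and untreated in the gamma arm. The untreated arrays of the gamma arm stand above those of the other 3 groups in every gene.

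Some differences passed both in the response and between the day 1 levels of the beams, among them those of Retnlg, S100a9, Saa3, Ckm, Gzmg and Gzmf. Retnlg read 66.3 and 61.4 at day 1 after carbon ions, against 12.1 and 14.1 at day 1 after gamma rays, and the responses differed by 4.15. S100a9 read 103 and 108 after carbon ions, against 45.7 and 35.7 after gamma rays. After gamma rays its log2 difference from that arm's untreated tumours (40.2 and 40.2) was 0.01. The neutrophil check list summed to 267 and 269 at day 1 after carbon ions, against 98.1 and 85.4 after 30 Gy of gamma rays. At day 1 after 50 Gy of gamma rays, a further dose in the series, this list summed to 367 and 314. High neutrophil sums at day 1 in NFSa were thus not limited to carbon ions. Saa3 read 38.4 and 34.3 after carbon ions, against 20.1 and 18.8 after gamma rays, though the gamma arm's untreated level was higher still, at 55.7 and 49.2. Ckm read 23.9 and 24.6 after carbon ions, against 6.05 and 5.77 after gamma rays, and all 28 muscle genes differed in response (23 higher, 5 lower after carbon ions). The muscle check list summed to 705 and 696 at day 1 after carbon ions, against 297 and 281 at day 1 after gamma rays, and its part in the other differences was not tested. Gzmg fell after carbon ions (-1.36) and rose after gamma rays (1.67), and Gzmf did the same (-0.96, against 1.03). Of the 37 p53 targets, 6 responded more and 3 less to carbon ions, and Ccng1 rose by 1.72 after carbon ions and by 1.58 after gamma rays (difference 0.14, SE 0.184, limma adjusted p = 0.68). Other differences were seen in the response alone. Elovl6 fell more after carbon ions (-1.34, against -0.45 after gamma rays), and 11 of 28 genes of its list had a lower response to carbon ions, with 0 higher. Between the day 1 levels of the beams the sterol list went the other way, with 17 genes higher and 1 lower after carbon ions and a median of 0.40, and Elovl6 differed by -0.07 without passing (adjusted p = 0.57). Ambp fell by 1.88 after carbon ions and changed by -0.11 after gamma rays, but its day 1 levels differed by -0.63 without passing (adjusted p = 0.079). For the slow-fibre genes Tnnc1 and Myl2 the 2 views had opposite signs, with responses lower by 1.81 and 1.90 and day 1 levels higher by 1.31 and 1.29 after carbon ions.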

How the data were processed

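RNA of transplanted mouse tumours was hybridised to single-colour arrays, and the values used are the intensities the authors deposited, linear, background-subtracted (lowest value -0.271) and near a median of 1 on each array (1.02 to 1.07). The way they were scaled is not given in the sources used here. The log2 of the deposited intensity was computed, with values not above 0 set to missing (0.149%). Of a gene's probes, the one with the highest mean over all 88 arrays was kept. Genes among the dimmest 25% by mean, or with values on under 80% of arrays, were dropped. A model with 44 group means was fitted with limma 3.58.1 in R 4.3.3 (lmFit, eBayes), with p-values adjusted over all genes by Benjamini-Hochberg. Level differences are log2 differences of the fit, with their SE. Of the 36227 probes, 21615 had 1 gene symbol, 681 several and 13931 none, and only the first kind was named.

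The genes, lists and comparisons were chosen with earlier results of these data known. Named genes are those past an adjusted p of 0.05 with the 15 largest rises and 10 largest falls at day 1, without overlap of the arrays, the 6 largest each way in every other comparison, and from each of 28 lists its first 2 members and up to 5 of the members that changed most. Not all of them are printed. The rule took only genes with a mean intensity of at least 0.5 in the brighter group. Cdkn1a, Mdm2, Ccng1 and Plk1 were always named. Promoters are RefSeq's (GRCm38.p6), 250 bases before to 50 after the start, 27025 in all. The correlation of same-numbered arrays' deviations ran from -0.13 to 0.18 over pairs of NFSa groups, so replicate numbers were not used as a block. Alternatives were quantile normalization, median centring, an offset before the log, other filters, the mean of all probes, a fit of the compared arrays alone, a trended prior, a replicate block, leaving out each array, and other untreated arrays. The fit was tested on simulated data.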

Additional observations from a re-analysis of the deposited data

Results flagged for a closer look

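The response to carbon ions at day 1 differed between NFSa and the mean of the other 3 tumours, by limma's test of that difference, in the following named genes (log2 scale, NFSa minus the others). It was higher in NFSa for Adipoq 3.60, Arg2 0.82, Asprv1 1.08, Gbp8 3.39, H2-Q10 1.36, Hp 1.88, Klra17 2.19, Mmp8 1.01, Orm2 1.35, Rarres2 1.21, Retnla 3.78, Retnlg 2.20, S100a8 1.60, S100a9 1.63, Saa3 1.42, Serpina3n 0.88 and Tspan8 1.95. It was lower in NFSa for Csrp3 -1.15, Cxcl3 -1.80, Gcnt4 -1.01, Gzmf -1.78, Gzmg -2.28, Myl2 -2.48, Otx1 -0.99, Tnnc1 -2.63, Tnni1 -2.86 and Tnnt1 -1.52. For Retnla the changes were 2.02 in NFSa, -0.83 in NR-S1, -4.03 in SCCVII and -0.44 in #8520. A response above the others' mean need not be above each of them. Arg2 rose by 2.37 in NFSa and 2.82 in #8520, and Asprv1 by 2.41 and 2.46. S100a9 and Retnlg also rose more in #8520 and Gbp8 in SCCVII, while Adipoq, Retnla and Tspan8 rose most in NFSa. Gzmg and Gzmf fell in #8520 by amounts near those in NFSa and rose in SCCVII, as given above.

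The day 1 response of NFSa also differed between the beams, by the same kind of test (log2 scale, carbon ions minus 30 Gy of gamma rays). It was higher after carbon ions for Calhm6 5.25, Cxcl9 5.96, Gbp4 4.78, Gbp8 9.04 and Saa3 5.64. It was lower after carbon ions for Ambp -1.77, Gzmf -1.99, Gzmg -3.03, Myl2 -1.90 and Tnnc1 -1.81. Each beam was set against its own untreated tumours, which differed from each other in many genes, as given above.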

How the results depend on the processing

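Among the alternatives run, the choice of untreated arrays moved the most results. Against the untreated tumours of the gamma arm, 6519 genes passed between day 1 and untreated tumours, and against those of both arms 4235, in place of 2166. Of 56 counts by list and direction, 45 moved by over 1.5 times with the gamma arm's untreated arrays and 41 with those of both arms, with the lists given above. With the gamma arm's untreated arrays the log2 difference changed sign in these genes, the cause of which was not tested: Adgre1 0.93, Arg2 -0.17, C1ra -0.92, Calhm6 -4.59, Ccl3 -0.86, Ccl8 -0.82, Cd3d -1.62, Cfb -1.98, Chek1 0.85, Cxcl2 -1.27, Cxcl3 -1.65, Cxcl9 -4.57, Eef2 2.38, Fabp4 -0.47, Gbp4 -3.73, Gbp8 -6.00, Idi1 0.14, Iigp1 -3.39, Il1b -1.003, Kif23 1.45, Krt14 0.13, Marco -0.77, Mcm7 2.23, Mt1 -0.20, Mt2 -0.43, Myl2 0.76, Nkg7 -2.11, Plk1 1.02, Rarres2 -0.49, Retnla -0.88, Saa3 -0.53, Slfn1 -0.68, Sqle 1.25 and Tnnc1 0.14. With the untreated arrays of both arms it changed sign in fewer genes: Adgre1 0.43, C1ra -0.0244, Calhm6 -2.11, Cd3d -0.58, Cfb -0.55, Chek1 0.093, Cxcl3 -0.60, Cxcl9 -2.02, Eef2 1.01, Gbp4 -1.54, Gbp8 -2.06, Iigp1 -1.66, Kif23 0.44, Mcm7 0.86, Nkg7 -0.60, Plk1 0.45 and Sqle 0.0623. When the day 1 arrays of both beams were compared directly, 5990 genes passed in place of 2487, and Myl2 1.29 and Tnnc1 1.31 changed sign. Leaving out the dimmest 50% of genes gave 1424 genes at day 1, 930 for the difference from the other tumours and 4306 between the untreated tumours of the arms, with fewer genes tested. A fit of the arrays compared alone gave 933 genes for the difference from the other tumours. Without any one of the arrays compared, 1382 to 1527 genes passed at day 1, 892 to 1750 for the difference from the other tumours, 1727 to 2479 for that between beams and 5090 to 5875 between untreated tumours. The arrays of other tumours and of the gamma arm were left out as an alternative chosen after seeing the data. The replicate numbers do not pair the arrays (correlation of deviations -0.01 between untreated and day 1 arrays). A replicate block gave 2233 genes at day 1, 1458 for the difference from the other tumours, 2589 for that between beams, 4738 against 6 h, 5490 for day 3 against day 1 and 6702 between untreated tumours. Without NR-S1, an alternative chosen after seeing the data, 1643 genes differed from the other tumours. With 2 arrays in each group, their number limits the precision.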
